A study of Mus musculus with 6 samples.

Results

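The Schlafen (Slfn) genes of the mouse were followed in BCR-ABL1 transformed pre-B cells, a mouse model of acute lymphoblastic leukaemia driven by this fusion kinase. The 7 members, Slfn1, Slfn2, Slfn3, Slfn4, Slfn5, Slfn8 and Slfn9, were found by symbol among 19936 genes tested. Each had 1 probe set that names no other gene, and 0 probe sets were shared between members or with another gene. A further 2 probe sets, of Slfn10-ps and of the antisense gene Slfn5os, hold a member's letters within a longer symbol and were kept apart. The cells came from wild-type C57Bl6 mice aged 4 weeks. All 6 samples carried BCR-ABL1 and a GFP-marked vector, either empty pMIG (3 arrays) or pMIG-IKZF1 (3 arrays), which supplies Ikaros, a zinc finger transcription factor of lymphoid development. On day 3 of transduction the GFP-positive cells were sorted, and Affymetrix arrays were hybridised with their total RNA. The labels give neither the species nor the isoform of the insert. Separate cultures or mice are not stated for the arrays either, and every p-value here reflects the spread among the arrays alone, which could be technical. The cells are a mixed transformed population in culture, and a change in a bulk level cannot tell more expressing cells from more RNA per cell.

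Schlafen proteins share an N-terminal domain that binds RNA and, in several members, cuts it. The short members consist of little more than this domain, the intermediate members add a linker region, and the long members add a C-terminal part that resembles helicases. Several Schlafen genes are induced by type I interferon, and the family is known for its part in lymphocyte development and quiescence. The family was chosen on the measured difference of Slfn1, among the largest of this same comparison. The members' differences are therefore given as a description, without p-values, and the calls below are counts from which nothing is read.

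The arrays resembled each other in scale, with median intensities between 100.2 and 107.2. Ikzf1 checked the transduction: its log2 level was 11.85, 11.78 and 11.98 on the pMIG arrays and 13.09, 13.14 and 13.06 on the pMIG-IKZF1 arrays (limma, adjusted p = 0.0021). The other 4 Ikaros family genes did not pass the threshold. As a mark of background, 95% of 1194 olfactory and vomeronasal receptor genes lay below a log2 level of 6.18. Of 19936 genes, 448 (2.25%) passed the threshold of a Benjamini-Hochberg adjusted p under 0.05 in limma, and 1438 (7.21%) did when arrays of the same replicate number were treated as pairs (the replicate block).

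Among the short members, Slfn1 differed far more than Slfn2. Slfn1 is known from thymocytes, where forced expression holds back growth. Its intensity was 95.5, 136 and 45.1 on pMIG arrays 1 to 3 and 621, 869 and 478 on the pMIG-IKZF1 arrays. On the log2(intensity + 1) scale used from here on, these are 6.59, 7.10 and 5.53 against 9.28, 9.76 and 8.91. The groups lie far apart, and the lowest array, pMIG 3, was within the background range. The difference was 2.91 ± 0.42 (SE, n = 3 arrays per group), or 7.51-fold, and it was 2.47 without pMIG 3. Paired by number, the arrays differed by 2.69, 2.66 and 3.38. The difference was thus of similar size in each pair and largest where the pMIG array was dimmest.

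Slfn2, whose product binds tRNAs and shields them from cleavage in T cells and whose loss breaks the quiescence of T cells and monocytes, was at a log2 level of 11.63, 11.60 and 11.84 in pMIG and 11.89, 11.93 and 11.86 in pMIG-IKZF1. All 3 pMIG-IKZF1 arrays lay above all 3 pMIG arrays, but pMIG 3 and pMIG-IKZF1 3 differed by 0.02 only. The difference was 0.21 ± 0.08 (SE, n = 3), or 1.15-fold.

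Of the intermediate members, Slfn3 was measured above background and Slfn4 was not. Slfn3, which has been studied in T cells and in the maturing gut epithelium, was lower with IKZF1 in each pair. Its levels were 9.88, 9.67 and 10.10 in pMIG and 9.47, 9.41 and 9.75 in pMIG-IKZF1, so the groups overlapped through pMIG 2 and pMIG-IKZF1 3. The difference was -0.34 ± 0.14 (SE, n = 3), and the paired differences of -0.41, -0.25 and -0.35 had an SD of 0.08. Slfn4, a gene of the myeloid lineage that macrophages induce on activation, stayed below the background mark on all 6 arrays, between 5.18 and 5.45 in pMIG and between 5.37 and 5.56 in pMIG-IKZF1. The groups overlapped, and no fold is given for Slfn4.

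Of the long members, Slfn5 and Slfn8 were higher on every pMIG-IKZF1 array and Slfn9 was not. Slfn5, an interferon-inducible nuclear protein gene, read 6.95, 7.51 and 5.92 in pMIG and 8.20, 8.37 and 7.90 in pMIG-IKZF1. Its pMIG arrays spread as widely as those of Slfn1, with an SD of 0.81 beside 0.80 (n = 3), and pMIG 3 was again the lowest and in the background range. The difference was 1.36 ± 0.38 (SE, n = 3), or 2.57-fold, and 0.92 without pMIG 3.

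Slfn8 read 7.56, 7.71 and 7.37 in pMIG and 8.09, 8.22 and 7.73 in pMIG-IKZF1. The groups were separated by a narrow gap, between pMIG 2 and pMIG-IKZF1 3, and the difference was 0.47 ± 0.15 (SE, n = 3), or 1.38-fold. Slfn9, the gene next to Slfn8, read 8.54, 8.40 and 8.93 in pMIG and 8.48, 8.58 and 8.64 in pMIG-IKZF1. These ranges overlap, the difference was -0.06 ± 0.14 (SE, n = 3), and the pairs did not share a direction (-0.06, 0.18 and -0.29). Slfn8, Slfn9 and Slfn10-ps are close relatives, and how far their probe sets read one another was not tested.

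**Figure D1:**
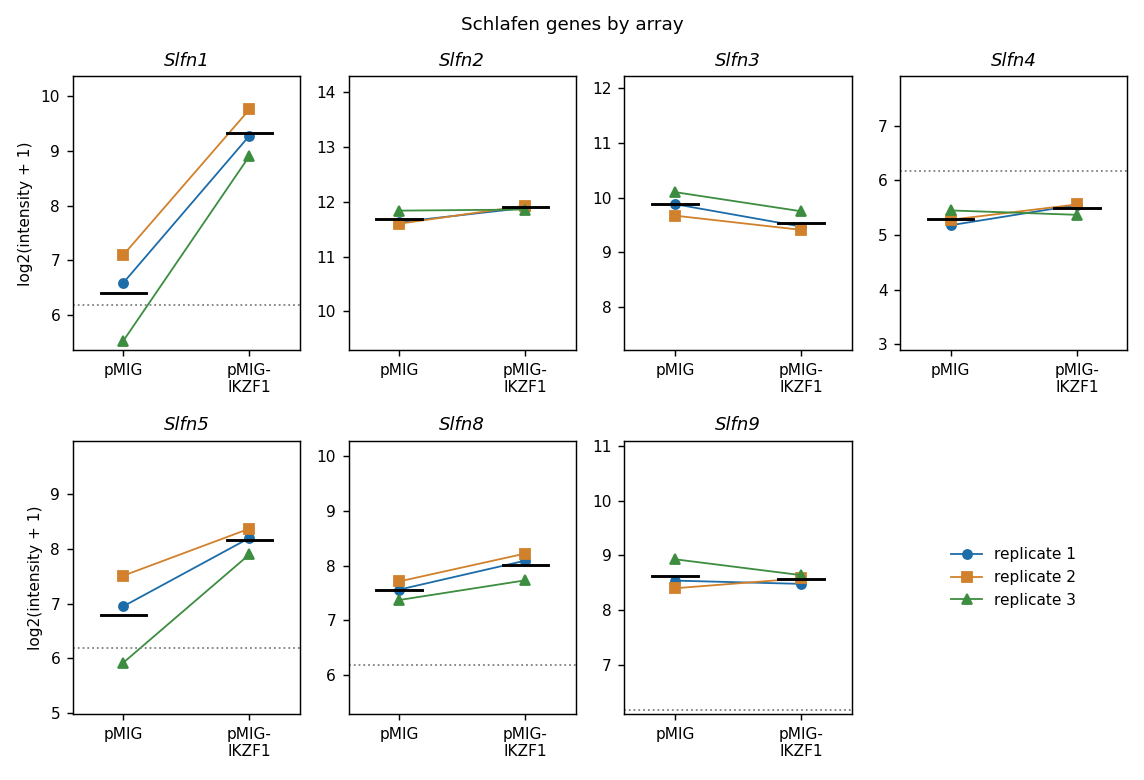
Log2(intensity + 1) of the 7 Schlafen genes, with 1 panel per gene, the pMIG and pMIG-IKZF1 groups on the x axis and the same span of 5 log2 units on each y axis. Lines join arrays of the same replicate number, black bars are group means (n = 3) and the dotted line is the background mark of 6.18. Slfn1 climbs from 6.41 to 9.32 on average and Slfn5 from 6.79 to 8.16, while Slfn4 stays below the mark.

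Counted by the fit over all genes, 1 of 7 members, Slfn1, passed the threshold in limma, where 2.25% of all genes did, 1.12% higher and 1.13% lower. With the replicate block 4 of 7 passed, Slfn1, Slfn5 and Slfn8 higher and Slfn3 lower, where 7.21% of all genes did. The groups did not overlap for 4 members, Slfn1, Slfn2, Slfn5 and Slfn8, all higher in pMIG-IKZF1, as for 15.2% of all genes in that direction (11.3% in the other, 26.5% in either). All 3 pairs had the same direction for 5 of 7 members, those 4 and Slfn3, and for 50.6% of all genes. The median difference over the 7 members was 0.21, and over all genes 0.03. Slfn1 did not pass without pMIG 1 or without any 1 of the 3 pMIG-IKZF1 arrays, fits in which 28, 24, 83 and 85 genes passed in all. It did pass without pMIG 2 and without pMIG 3, as did 163 and 947 genes.

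The order of the arrays was shared by some members. In both groups Slfn1, Slfn5 and Slfn8 were highest on array 2 and lowest on array 3, an order that 9.34% of all genes showed in both groups. Slfn3 had the reverse order in both groups, as did 11.8% of all genes. Slfn9 was highest on array 3 in both groups, and Slfn2 and Slfn4 ordered the arrays differently in each group. The order is given as a description, since the arrays that share a number may share a source.

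The family lies in 1 cluster on chromosome 11, where the RefSeq gene table for assembly GRCm38.p6 lists 10 Slfn symbols in a row, in the order Slfn5os, Slfn5, Slfn9, Slfn8, Slfn10-ps, Slfn2, Slfn1, Slfn4, Slfn3 and Slfn14. Slfn14 was not analysed here. The larger differences did not follow this order: between Slfn5 (1.36) and Slfn1 (2.91) stand Slfn9 (-0.06), Slfn8 (0.47), Slfn10-ps and Slfn2 (0.21). Slfn10-ps, a pseudogene by its name, read 8.23, 8.34 and 7.85 in pMIG and 8.79, 8.56 and 8.36 in pMIG-IKZF1, without overlap. Its difference was 0.43 (limma, adjusted p = 0.23, and 0.046 with the replicate block). Slfn5os, the antisense neighbour of Slfn5, had a difference of -0.07 at a background level (limma, adjusted p = 0.62).

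No gene beside the cluster passed the threshold. Of 12 genes, the 5 nearest tested genes on each side with Slfn10-ps and Slfnl1, which lies on another chromosome, 0 passed in limma (1 with an unadjusted p under 0.05) and 1, Slfn10-ps, passed with the replicate block. Over all 19936 genes, 3671 had an unadjusted p under 0.05 and 1438 (7.21%) passed with the block. On one side lie Rad51d, of homologous recombination, Nle1, of ribosome assembly, Fndc8, the myosin chaperone gene Unc45b and its antisense gene Unc45bos. On the other lie Ap2b1, of clathrin adaptors, Rasl10b, Gas2l2, 1700020L24Rik and the metalloproteinase gene Mmp28. Leaving out Slfn10-ps, differences ran from -0.12 for Nle1 to 0.19 for Unc45bos, with limma adjusted p of 0.36 and 0.46. That the members differed more than their neighbours was not tested.

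**Figure D2:**
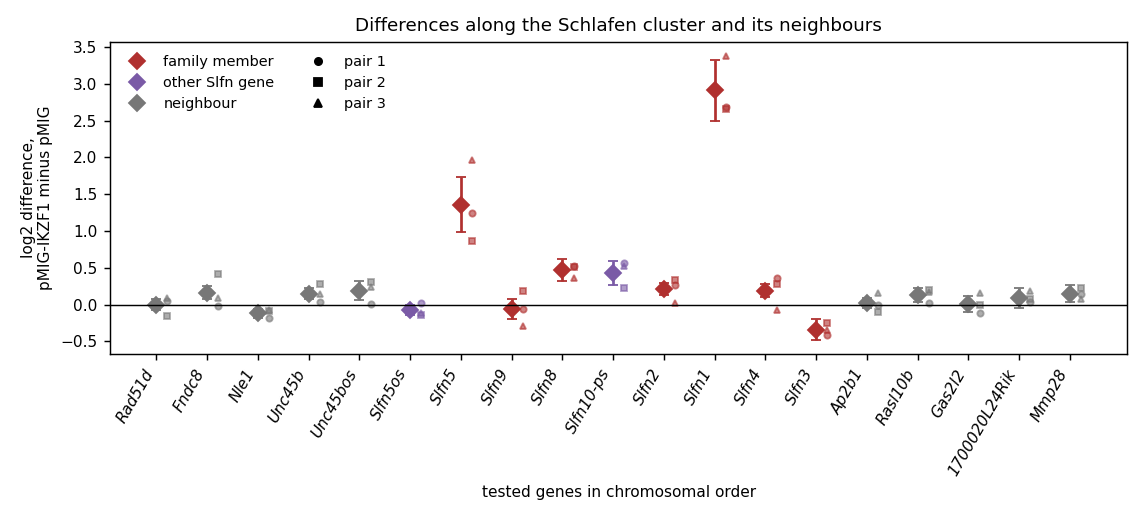
Log2 difference, pMIG-IKZF1 minus pMIG, of the tested Slfn genes of the cluster and the 5 nearest tested genes on each side, in chromosomal order. Diamonds are differences of group means with SE (n = 3 per group), and small symbols are the differences of same-numbered arrays. Slfn1 (2.91) and Slfn5 (1.36) rise out of a row whose neighbours stay between -0.12 and 0.19.

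Promoter windows of the members, 250 bases before to 50 after an annotated start, were read from RefSeq (build GRCm38.p6) and searched on both strands for 3 short motifs. These were AANNGAAA, the core to which interferon regulatory factors (IRF) bind, TTCNNNGAA, the GAS element to which STAT dimers bind, and GGGAA, the core of Ikaros binding sites. All 7 members had a window, and Slfn8 had 2 that overlap. Over all 32851 windows of this length, 23.9% held the IRF core, 8.30% the GAS letters and 62.7% the Ikaros core. The IRF core was found in a window of each of the 7 members, the Ikaros core in those of Slfn2, Slfn3, Slfn5, Slfn8 and Slfn9, and the GAS letters in none. The IRF core was chosen after a longer interferon response motif had been searched and had matched in only some of the members, so nothing is read from its count. The windows of the 3 long members and of Slfn1, which had the largest difference, are shown to set the motifs beside the values. Capitals mark every motif match, 5′ to 3′ on the strand of the gene.
Slfn5 (GRCm38.p6, chr11:82951852-82952151, plus strand): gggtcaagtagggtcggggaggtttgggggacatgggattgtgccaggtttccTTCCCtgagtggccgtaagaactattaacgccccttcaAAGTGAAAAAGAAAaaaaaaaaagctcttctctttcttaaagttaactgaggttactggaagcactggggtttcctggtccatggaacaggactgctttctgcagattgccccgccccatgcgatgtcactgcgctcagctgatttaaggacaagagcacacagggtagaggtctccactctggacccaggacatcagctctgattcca
Slfn8 (GRCm38.p6, chr11:83020761-83021060, minus strand): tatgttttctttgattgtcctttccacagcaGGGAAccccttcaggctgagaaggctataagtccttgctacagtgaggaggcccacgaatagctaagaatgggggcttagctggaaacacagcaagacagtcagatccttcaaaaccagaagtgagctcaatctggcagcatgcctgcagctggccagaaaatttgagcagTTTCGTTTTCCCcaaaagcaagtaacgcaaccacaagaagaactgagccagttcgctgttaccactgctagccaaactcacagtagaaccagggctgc
Slfn9 (GRCm38.p6, chr11:82991781-82992080, minus strand): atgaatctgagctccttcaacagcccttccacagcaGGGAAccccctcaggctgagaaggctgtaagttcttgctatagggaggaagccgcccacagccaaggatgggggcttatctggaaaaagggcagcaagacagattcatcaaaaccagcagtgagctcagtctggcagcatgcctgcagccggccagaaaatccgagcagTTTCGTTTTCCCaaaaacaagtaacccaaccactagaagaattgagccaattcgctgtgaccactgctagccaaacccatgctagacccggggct
Slfn1 (GRCm38.p6, chr11:83116570-83116869, plus strand): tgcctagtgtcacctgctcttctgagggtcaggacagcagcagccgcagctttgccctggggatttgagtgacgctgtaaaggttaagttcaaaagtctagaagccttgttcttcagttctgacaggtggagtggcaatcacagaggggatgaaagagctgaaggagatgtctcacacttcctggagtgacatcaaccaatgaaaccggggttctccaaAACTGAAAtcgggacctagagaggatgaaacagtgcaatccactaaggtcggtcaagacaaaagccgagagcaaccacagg

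Positions are counted in bases from the start. In Slfn5 the IRF core occurs as AAGTGAAA at -159 and as AAAAGAAA at -153, 2 matches that overlap, and an Ikaros core lies at -197. In the Slfn8 window shown and in Slfn9 it occurs with the same letters, TTTCGTTT, at -48 and -45, and an Ikaros core overlaps its last base at -41 and -38. The Slfn8 window shown and that of Slfn9 also share an Ikaros core far upstream, at -219 and -214. These windows thus hold the same motifs at nearly the same distance. The other Slfn8 window held the IRF core at -136 and 1 Ikaros core, at -129. The differences of Slfn8 and Slfn9 were 0.47 and -0.06, and the part of the motifs in them was not tested. The Slfn1 window held 1 IRF core, AACTGAAA at -31, and 0 Ikaros cores, and that of Slfn4, the member below background, held 3 IRF cores and 0 Ikaros cores. Slfn2 and Slfn3 each had 1 Ikaros core, at -144 and -163. A match shows only that the letters are present, and their absence from this window says nothing of binding elsewhere.

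The interferon programme, which induces several Schlafen genes, was examined through 33 interferon-stimulated genes fixed as a list, of which 30 were tested. Of these 2 rose, 0 fell and 28 did not pass in limma, where 1.12% of all genes rose, and 22 had a difference above 0, as did 11811 of all 19936 genes (median 0.30, beside 0.03 over all genes). The risers were Ifit3 (1.69 ± 0.23, adjusted p = 0.024) and Ifit1 (0.78 ± 0.11, adjusted p = 0.029), which encode antiviral proteins that bind RNA. Both were within the background range in pMIG, at log2 levels of 5.50 and 5.47. On the pMIG-IKZF1 arrays Ifit3 read 7.62, 7.2 and 6.74, all above the mark of 6.18. Ifit1 read 6.1, 6.49 and 6.16 there, with 2 arrays still in the background range. Ifit3 did not pass without pMIG 1 or 2 or without pMIG-IKZF1 1 or 2, and of the fits without 1 array Ifit1 passed in that without pMIG 3 alone. With the replicate block 8 rose and 1 fell, where 3.36% of all genes rose and 3.85% fell. An unadjusted p under 0.05 in limma was found for 10 of the 30 and for 3671 of all 19936 genes.

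Among the interferon-stimulated genes, Zbp1, a sensor of Z-form nucleic acids, resembled Slfn5 most closely in size and array order of the genes named. It read 8.68, 9.0 and 7.31 in pMIG and 9.82, 10.23 and 9.56 in pMIG-IKZF1. The difference of 1.54 ± 0.44 did not pass in limma (adjusted p = 0.14, 0.023 with the replicate block and 0.039 without pMIG 3). Irf7, the interferon regulatory factor that amplifies the response, had 0.92 ± 0.28 (limma, adjusted p = 0.17, and 0.0067 with the block). The antiviral gene Rsad2 (0.68) and Oasl1 (0.65) had limma adjusted p of 0.0502 and 0.073, and 0.011 and 0.023 with the block. Rsad2 also passed in limma with quantile normalization (adjusted p = 0.042), median centring (0.047), the mean of probe sets (0.0496), an intensity trend (0.046), array weights (0.016) and without pMIG 3 (0.032), and its adjusted p was 0.051 to 0.18 under the other alternatives that kept it.

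Array pMIG 3, on which Slfn1, Slfn5 and Slfn8 were lowest in their group, was also the lowest pMIG array for 27 of 30 interferon-stimulated genes, beside 37.3% of all genes. Array 3 was the lowest in both groups for 21 of 30, beside 18.2% of all genes. For 13 of the 30 the order of arrays was that of Slfn1 in both groups, beside 9.34% of all genes. The mean log2 level of the list was 7.77, 7.95 and 7.10 in pMIG and 8.02, 8.12 and 7.81 in pMIG-IKZF1. Array 3 thus had the lowest list mean in both groups, as it did for Slfn1, Slfn5 and Slfn8, but unlike theirs the list means overlap, with pMIG 2 above pMIG-IKZF1 3. The part of the list's level in the differences of these genes was not tested.

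Of 19 tested genes of interferon receptors and the proteins that pass their signal, 1 rose, 0 fell and 18 did not pass in limma (median difference 0.09). Over all genes 1.12% rose in limma. An unadjusted p under 0.05 was found for 7 of the 19 and for 3671 of all 19936 genes. Ifngr2, a chain of the interferon gamma receptor, was the riser (0.52 ± 0.08, adjusted p = 0.028). It did not pass once any 1 array other than pMIG 3 was left out. Socs1, a feedback inhibitor (0.56), and Stat2, a subunit of the factor that binds interferon response elements (0.72), had limma adjusted p of 0.094 and 0.16. With the replicate block both passed (adjusted p = 0.040 and 0.030), and 3 rose in all, where 3.36% of all genes rose. Irf2 (0.28), the receptor chain gene Ifnar1 (0.30) and the kinase gene Tyk2 (0.35) had limma adjusted p between 0.21 and 0.25.

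Of 19 tested genes of lymphocyte quiescence, 1 rose, 0 fell and 18 did not pass in limma (median difference 0.19), and with the replicate block 6 rose. Over all genes 1.12% rose in limma and 3.36% with the block. An unadjusted p under 0.05 in limma was found for 7 of the 19 and for 3671 of all 19936 genes. The riser in limma was Peli1, a ubiquitin ligase gene that restrains T cell activation (0.42 ± 0.06, adjusted p = 0.030), which did not pass after median centring (adjusted p = 0.053) or without any 1 array other than pMIG 3. Klf2, a transcription factor of resting lymphocytes, read 9.0, 9.59 and 8.39 in pMIG and 10.24, 10.22 and 9.97 in pMIG-IKZF1. The groups lie apart, at a difference of 1.15 (limma, adjusted p = 0.11, and 0.026 with the block). Cdkn2c, which encodes an inhibitor of cell cycle kinases, had 0.80, Vsir 0.64, Tsc2 0.19 and the antiproliferative gene Btg2 0.87, with limma adjusted p between 0.12 and 0.23. With the block Cdkn2c (adjusted p = 0.022), Vsir (0.022) and Btg2 (0.0067) passed and Tsc2 (0.13) did not. The groups of Btg2 overlapped, with pMIG 3 at 10.38 and pMIG-IKZF1 2 at 10.18. In limma with array weights Klf2 (adjusted p = 0.029), Cdkn2c (0.021) and Btg2 (0.037) passed, and Vsir (0.056) and Tsc2 (0.091) did not. Klf2 also passed in limma without pMIG 2 (adjusted p = 0.049), and Cdkn2c without pMIG 3 (0.02). Unlike Slfn1, both Cdkn2c and Btg2 were highest on array 3 in each group.

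Among 12 tested genes listed under RNA cleavage and tRNA protection, not all of which do either, 0 passed in limma (2 with an unadjusted p under 0.05, median difference 0.02). Such an unadjusted p was held by 3671 of all 19936 genes. Samhd1, a nucleotide hydrolase gene that interferon can induce, had the largest difference of those named, 1.02 ± 0.35 (limma, adjusted p = 0.20, and 0.044 with the block), and its arrays followed the order of Slfn1 in both groups. The tRNA methyltransferase gene Trdmt1 had -0.40 (limma, adjusted p = 0.29, and 0.042 with the block), with the order of Slfn3. The tRNA processing gene Elac2 (-0.16), Dicer1 (0.14), the amino acid sensor kinase gene Eif2ak4 (-0.20) and the exonuclease gene Xrn1 (0.13) had limma adjusted p between 0.19 and 0.40.

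**Figure D3:**
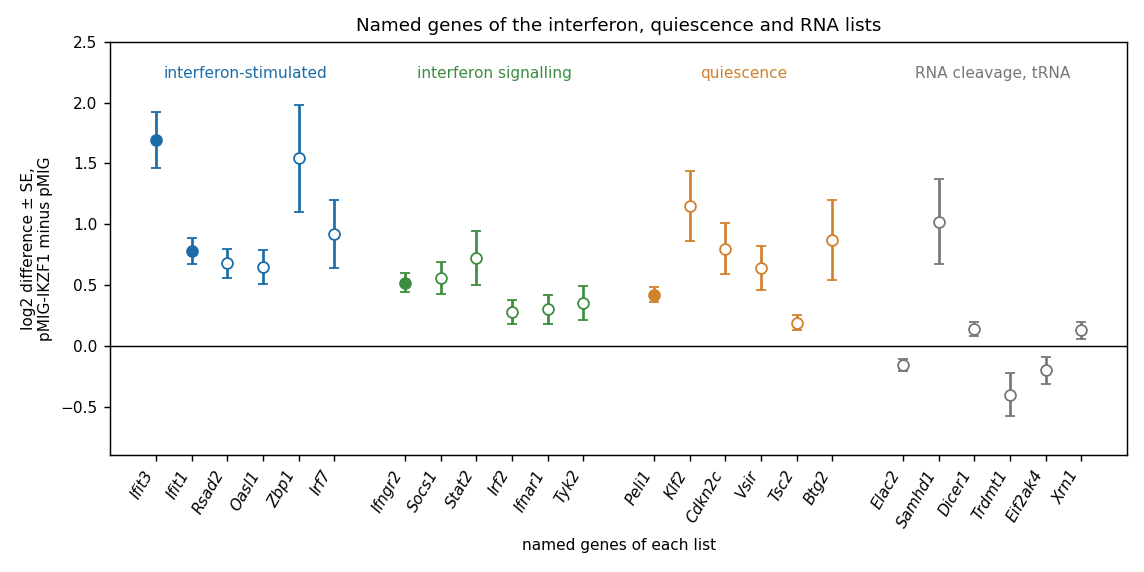
Log2 difference, pMIG-IKZF1 minus pMIG, with SE (n = 3 per group), of the named genes of the 4 lists, by list along the x axis. Filled points passed an adjusted p under 0.05 in limma and open points did not. Ifit3 (1.69), Ifit1 (0.78), Ifngr2 (0.52) and Peli1 (0.42) are filled, while Zbp1 (1.54), Klf2 (1.15) and Samhd1 (1.02) are open, with wider error bars.

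The genes whose level across the 6 arrays was most like that of Slfn1 were sought among 619 named genes with an SD of at least 0.5. By Pearson r over the 6 arrays they were Tmem86a, a lysoplasmalogenase gene (r = 0.999), the integrin gene Itgb7 (0.997), the lysosomal thiol reductase gene Ifi30 (0.994), Tmem71 (0.994), the epoxide hydrolase gene Ephx1 (0.994) and the calcium-binding protein gene S100a4 (0.994). The arrays form 2 groups, so r here mostly reflects the step between them. The likeness to Slfn1 fixes a difference between the groups, so theirs, 0.92 to 1.38, is given without a test.

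Once each group's mean was removed, the genes closest to Slfn1 were Grtp1 (r = 0.998 over 6 deviations), Tmem86a (0.997), the MHC class II chaperone gene H2-Oa (0.995), the platelet-activating factor receptor gene Ptafr (0.994), the interleukin 4 receptor gene Il4ra (0.994) and Tmco3 (0.993). Only Tmem86a was in both sets. Ptafr read 8.28, 9.03 and 6.84 in pMIG and 8.58, 9.17 and 8.26 in pMIG-IKZF1, with a difference of 0.62 (limma, adjusted p = 0.57). Grtp1, H2-Oa and Il4ra likewise overlapped between the groups. Genes that tracked Slfn1 within a group were thus found with and without a separation of the groups.

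**Figure D4:**
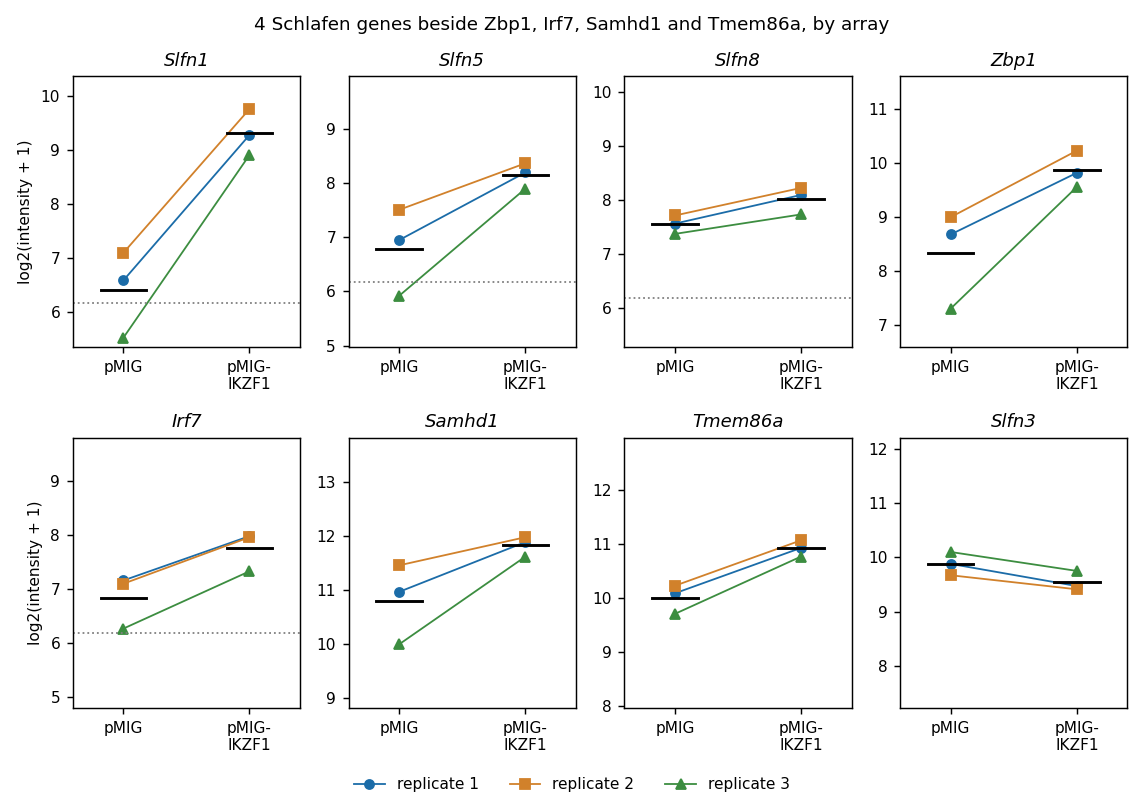
Log2(intensity + 1) by array of Slfn1, Slfn5, Slfn8 and Slfn3 beside Zbp1, Irf7, Samhd1 and Tmem86a, which were picked for display after their values were seen. The x axis gives the groups, each y axis spans 5 log2 units, lines join same-numbered arrays, black bars are group means (n = 3) and dotted lines the background mark. Array 3 (triangles) is the lowest in both groups in all panels but that of Slfn3.

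Markers of the labelled cell type were present, and those of most other blood cells lay near background. Of 12 pre-B cell markers 11 were tested, all above the background mark, and 0 passed in limma (3 with an unadjusted p under 0.05). They included Cd79b (13.34 in pMIG and 13.57 in pMIG-IKZF1), Igll1 (13.88 and 13.66) and Pax5 (12.14 and 12.37), and their summed intensity was 55200 to 60400 in pMIG and 58200 to 60000 in pMIG-IKZF1. Differences over the list ran from -0.62 for Dntt (8.56 and 7.94) to 0.76 for Rag1 (8.05 and 8.81). T cells express several Schlafen genes, and of 11 tested T cell and NK cell markers 6 were in the background range in both groups, Cd3d among them (5.13 and 5.31). Their summed intensity, 4100 to 5650 in pMIG and 4430 to 5300 in pMIG-IKZF1, came largely from Cd2 (12.06 and 11.98), which B-lineage cells also express, and 0 passed in limma (1 with an unadjusted p under 0.05). Such an unadjusted p was held by 3671 of all 19936 genes. Cd3e (6.95 and 7.34, limma, adjusted p = 0.21) lay above the background mark, and Cd8a (6.09 and 6.31, adjusted p = 0.3) near it. The groups did not overlap for 3 of the 11 higher in pMIG-IKZF1, Cd3e and Cd8a among them, and for 1 lower. Over all genes these shares were 15.2% and 11.3%. Of the 11 differences 9 were above 0, as were 11811 of all 19936 genes.

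Of 12 granulocyte markers 1 rose, Ly6g (4.47, limma, adjusted p = 0.0014), while 8 stayed in the background range in both groups, S100a8, S100a9, Mpo and Elane among them. The summed intensity of that list was 680 to 730 in pMIG and 1410 to 1970 in pMIG-IKZF1. Ly6g was at 5.61 in pMIG and 10.08 in pMIG-IKZF1. The other markers of that list, Retnlg (0.11) among them, had differences between -0.11 (Elane) and 0.14 (S100a9). Monocyte, macrophage and dendritic cell markers, the list closest to Slfn4, had 8 of 11 in the background range in both groups and sums of 869 to 950 and 896 to 969, and 0 passed in limma (1 with an unadjusted p under 0.05). Lyz2, at 6.42 in pMIG and 5.95 in pMIG-IKZF1, had -0.47 (limma, adjusted p = 0.20). Its groups did not overlap, as for 11.3% of all genes in that direction. Cd14 (0.13) and Itgam (0.12) were in the background range in both groups. Erythroid markers were tested for 4 of 8 entries, with sums of 276 to 284 and 278 to 332. Among them Slc4a1 (0.25), Alas2 (0.09) and Epor (0.12) had limma adjusted p between 0.17 and 0.65. Stromal markers were tested for 10, with sums of 1760 to 2180 and 2400 to 2530, mostly from Pecam1, which lymphocytes also express. The collagen genes Col1a1 (0.30), Col1a2 (0.29) and Col3a1 (0.31) were above the background mark too. All 10 stromal differences were above 0, as were 11811 of all 19936 genes. Of erythroid and stromal markers 0 passed in limma (1 and 3 with an unadjusted p under 0.05), and 1 stromal marker did with the block. Over all 19936 genes, 3671 had such an unadjusted p and 1438 (7.21%) passed with the block. The part of Ly6g and of the stromal list in the members' differences was not tested.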

How the data were processed

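Total RNA of 6 cell samples was measured on Affymetrix arrays, 3 per group, grouped by the transduction in the titles. The authors deposited 1 intensity per probe set and array, normalized by RMA per the submitters' processing notes. RMA is often given as log2, but the deposited intensities are linear, as read from their range. The version of RMA is not given in the sources used here, nor is an annotation release. RMA equalises arrays, and dim probe sets still carry background, so differences of dim genes may be understated, which was not tested.

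Of 35421 probe sets, 21789 name 1 gene, 1621 name several, and 12011 have no name here. Symbols came through RefSeq gene numbers for 21698 and accessions for 3, and kept for 88. The brightest probe set stood for a gene, which left 19936 genes. Values are log2(intensity + 1), and differences are pMIG-IKZF1 minus pMIG. The comparison used lmFit and eBayes of limma 3.58.1 (R 4.3.3; 2-sided, group as the only term), with Benjamini-Hochberg adjustment over all genes and a threshold of 0.05. The code was checked on simulated data. The number of arrays limits the precision.

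Replicate numbers are shared between groups in the titles. Deviations from group means correlated across genes with r of 0.24, 0.60 and 0.66 for same-numbered arrays and of -0.68 to 0.11 for others. All same-numbered pairs exceeded 0.1, the limit for taking numbers as pairs, so fits with a replicate block are given where they change a call. Arrays pMIG 1 and pMIG-IKZF1 2, of unlike numbers, exceeded it too (0.11), so the limit alone does not single out same-numbered arrays.

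The members, lists, motifs and rules were chosen with earlier results of these data known. The IRF core replaced a longer interferon response motif, and was chosen after that motif's matches, in only some members, had been seen. All members, cluster genes and Ikaros family genes were named. Of each pathway list 6 genes and of each marker list 3 were named, those past the threshold first and then the smallest p, with the 6 genes most like Slfn1 by either measure. Gene models without a name were left out there. A few further markers were named after their values were seen. Alternatives were a replicate block, a pseudocount of 16, only genes above background, quantile normalization, median centring, the mean of probe sets, an intensity trend, array weights and leaving out each array.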

Additional observations from a re-analysis of the deposited data

How the results depend on the processing

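The differences of the 7 members moved by less than 1 SD between arrays under each alternative run. Leaving out 1 array at a time gave 2.47 to 3.26 for Slfn1, 0.16 to 0.28 for Slfn2, -0.45 to -0.23 for Slfn3, 0.13 to 0.26 for Slfn4, 0.92 to 1.72 for Slfn5, 0.36 to 0.61 for Slfn8 and -0.17 to 0.10 for Slfn9. Only the sign of Slfn9 turned. Slfn4 has no value among brighter genes only, as it lies below that limit. No fit of shared probe sets was made, since no member has one.

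Counts past the threshold in limma depended on the fit. With the replicate block they were 4 members (1 without it), 9 interferon-stimulated genes (2), 3 interferon receptors and transducers (1), 6 quiescence genes (1), 2 RNA cleavage and tRNA genes (0) and 1 gene of the cluster surroundings (0). With array weights, whose estimation stopped short of convergence, they were 4, 2 and 5 in the interferon-stimulated, receptor and quiescence lists. Rsad2 made the interferon-stimulated count 3 with quantile normalization, median centring, the mean of probe sets and an intensity trend. Among brighter genes only, 1 interferon-stimulated gene passed of 22 left, and with median centring 0 quiescence genes. Without single arrays the counts ran from 0 to 1 for members, 0 to 5, 0 to 3 and 0 to 5 for these lists, and stayed 0 for the RNA list and the surroundings. Over all genes, 448 passed in limma, 1438 with the replicate block, 1481 with array weights and 24 to 947 without single arrays. Quantile normalization gave 547, median centring 402, the mean of probe sets 465, an intensity trend 407 and brighter genes only 469 of 12650. The causes were not tested.

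Outside the members, a few genes near 0 changed sign. Over the fits without 1 array, Ikzf4 ran from -0.17 to 0.10, Rad51d from -0.04 to 0.04, Ap2b1 from -0.04 to 0.06, Gas2l2 from -0.04 to 0.11 and 1700020L24Rik from -0.01 to 0.21. Quantile normalization gave 0.04 for Rad51d and -0.03 for Gas2l2, median centring -0.03 for Ap2b1 and for Gas2l2, and array weights 0.02 for Rad51d.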
